A study of Mus musculus with 10 samples.

Results

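The nuclear-encoded subunits of the oxidative phosphorylation chain were taken from gene tables of mouse dendritic cells by gene symbol: every gene named as an Nduf, Sdh, Uqcr, Cox4 to Cox8 or Atp5 subunit, with the row named as a pseudogene left out. The rule found 84 of the 41813 genes in the tables, of which 37 belong by name to complex I, 4 to complex II, 8 to complex III, 18 to complex IV and 17 to complex V. It did not use any measured value. Of the 84 members, 77 had enough counts to be tested and 7 did not.

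RNA-seq was made from mouse bone marrow-derived dendritic cells selected as CD11c+ and MHCII high, in 3 libraries titled activated and 3 titled non-activated. By the series' design text, dendritic cells given LPS, a bacterial cell wall component that triggers Toll-like receptor 4, were either pulsed or not pulsed with the ovalbumin peptide OVA323-339, and were then kept for 24 h with CD4+ OT-II T cells, which carry a transgenic receptor for it. The sample labels instead give LPS for the activated group and no stimulation for the other, so the groups are called activated and non-activated as in the titles. Whether replicates are separate animals or cultures is not given in the labels. P-values therefore measure the spread between these libraries, which may be technical, and the ATAC-seq samples of the series were not analysed here.

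The respiratory chain sits in the inner mitochondrial membrane. Complexes I and II pass electrons from NADH and succinate to ubiquinone, complex III passes them to cytochrome c and complex IV to oxygen, and complex V uses the resulting proton gradient to make ATP. Most subunits are nuclear genes, while a small core of complexes I, III, IV and V is encoded in mitochondrial DNA. Dendritic cells stimulated through Toll-like receptors are known for a rise in glycolysis, and at later times, where nitric oxide is made, for a loss of respiration.

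Libraries held 21338012 to 27404937 expected counts, and 18803 to 19604 genes had a count above 0. The replicate 1 libraries of both groups stood apart: 189 T cell receptor alpha genes took 7.37% of the TPM (a level scaled by effective transcript length and library total) in the activated one and 7.39% in the non-activated one, and at most 0.0275% in the other 4. Dendritic cell genes were abundant in both groups, with H2-Ab1 at a mean of 2780 CPM (counts scaled to library size, not to length) in activated and 2906 in non-activated libraries, and 3 of 10 such markers (Irf4, Zbtb46 and Irf8) passed the test as higher. The other 7 did not pass, and all had fitted log2 changes below 0, from -0.37 for H2-Aa to -0.01 for Flt3. The median change of the 10 was -0.08. Of 15 T cell markers 8 were tested and 3 (Lck, Zap70 and Cd247) were higher in activated libraries, where Lck reached 4.37 CPM against 0.999. The other 5 did not pass: Cd28 was fitted lower (log2 -0.92, edgeR adjusted p = 0.100). Trac and Trbc2 were near 0 (0.001 and 0.05), and Cd5 and Lat were above it (0.63 and 0.90). None of these 15 was at 0 in all libraries, and their summed TPM ran from 83.1 to 41501 in activated and from 42.9 to 41374 in non-activated libraries, the high ends being the replicate 1 libraries. Of 8 macrophage markers 1 was higher (Mertk) and 2 were lower, Fcgr1 among them, at summed TPM of 481 to 684 and 590 to 659. The 1 tested B cell marker of 5, Cd79b, was higher at 1.96 CPM against 0.134, with the list's summed TPM at 3.02 to 4.03 against 0.34 to 0.70. No neutrophil marker was tested. The part of other cells in the results that follow was not tested.

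Levels per length spanned a wide range within each complex. The most abundant member was Atp5b, the catalytic beta subunit of ATP synthase, at 991 ± 115 TPM (SD, n = 3) in activated and 945 ± 65.3 TPM in non-activated libraries. Cox8a, a small subunit of complex IV, followed at 624 ± 60.2 and 685 ± 38.3 TPM. In complex I the highest level was that of Ndufa3, a small membrane-arm subunit, at 274 ± 10.8 and 329 ± 48.2 TPM. In complex II it was Sdhd, a membrane anchor, at 188 ± 14.7 and 241 ± 10.7 TPM. In complex III it was Uqcrq, a small subunit, at 289 ± 12.8 and 309 ± 23.8 TPM. Of these 5, Sdhd and Ndufa3 passed the test between groups given below.

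**Figure D1:**
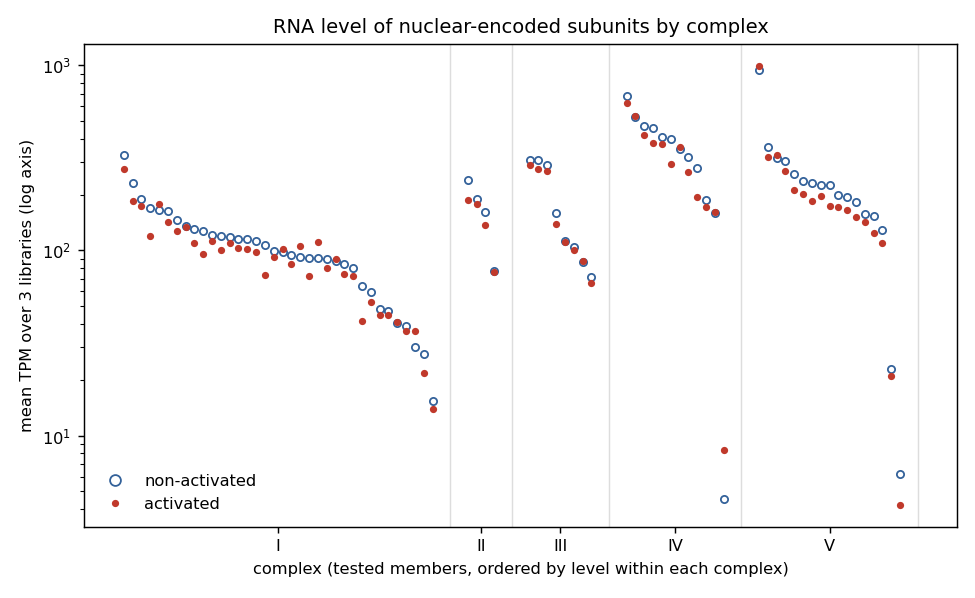
Mean TPM (log axis) over 3 libraries of each tested member, ordered by level within complexes I to V, with open blue circles for non-activated and filled red points for activated libraries; no error bars are drawn. Most filled points lie at or below the open ones, with the highest level at Atp5b and low outlying levels at Cox7a1 (lowest of complex IV) and Atp5s (lowest of complex V).

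Most members were slightly lower in activated libraries, and few passed the test. With edgeR's quasi-likelihood test on the expected counts and Benjamini-Hochberg adjustment over 13946 genes at 0.05, 13 of the 77 tested members were lower (16.9%) and 1 was higher (1.3%). Over all tested genes 27.6% passed, 15.9% as higher and 11.7% as lower. Beside all genes, lower calls thus took a somewhat larger share of the members in this fit, and higher calls a smaller one. Among the fits given below, the gap in lower calls was wider on total counts, with the replicate number as a block and without activated replicate 2. It was reversed without both libraries of number 2, or of number 3. The members also had smaller standard errors, given below, with which an equal change passes more readily. The part of this in the shares was not tested. The median fitted change was -0.15 on the log2 scale over the 77 members and 0.01 over all tested genes, with 62 members fitted below 0 and 15 above. Values in the 2 groups did not overlap for 30 members that were lower and 4 that were higher, against 20.7% of all tested genes lower and 23.9% higher. These RNA levels come from bulk samples, in which fewer cells of a type and less RNA per cell cannot be told apart.

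The changes were small. Fitted values ran from -0.63 for Ndufb11 to 0.88 for Cox7a1, and no member both passed the test and changed by 2-fold or more. For 67 of the 77 members (87.0%) the 95% interval of the fold change lay within 1.5-fold in either direction, against 42.8% of all tested genes, and the members' median standard error was 0.09 on the log2 scale against 0.14. The 10 members whose interval reached past 1.5-fold were Ndufa4, Ndufa6, Ndufa12, Ndufb4, Ndufb11, Cox4i1, Cox7a1, Cox7a2l, Atp5g2 and Atp5s. By complex, 7 of 36 tested members were lower and 1 higher in complex I, 1 of 4 lower in complex II, none of 8 in complex III, 3 of 12 lower in complex IV and 2 of 17 lower in complex V. Median changes of the complexes were -0.14, -0.11, -0.08, -0.13 and -0.20 in that order, and differences between complexes were not tested.

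The count of members called depended on single libraries and on pairing. It fell from 13 lower to 8 without activated replicate 3, to 6 without non-activated replicate 2 and to 8 without non-activated replicate 3. Lower calls over all tested genes fell too, from 1632 of 13946 to 1274 of 14241, 1061 of 14400 and 1093 of 14361 in that order. The lower members rose to 14 without activated replicate 1, against 1673 of 14255 genes. They rose to 16 without activated replicate 2, against 1437 of 14363 genes. Leaving out non-activated replicate 1 gave 11, against 1182 of 14260 genes. Without non-activated replicate 2 the lower share of the 77 members was close to that of all genes. The 1 higher call did not hold once non-activated replicate 1, or replicate 3, was left out. Without both libraries of number 2 the lower members were 3 (Ndufa12, Ndufb11 and Cox7a2l), against 775 of 14183 genes. Without both of number 3 they were 2 (Ndufb11 and Cox7a2l), against 600 of 14028 genes. In both fits the share of members called lower was below that of all genes. Without both replicate 1 libraries, which hold the T cell receptor alpha reads, 11 members were lower, of which 10 were among the 13, and none was higher. Over all genes 1464 of 14027 were lower there. Same-numbered libraries deviated together, and with the replicate number as a block 23 members were lower (29.9%) and 1 higher, all 13 included, against 17.2% of all genes lower and 20% higher. In that fit the lower members were 13 of complex I, 1 of complex II, 4 of complex IV and 5 of complex V, and again none of complex III. With total counts in place of the TMM factors 30 members were lower and the split of all calls moved from 2216 higher and 1632 lower to 1792 higher and 2274 lower.

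**Figure D2:**
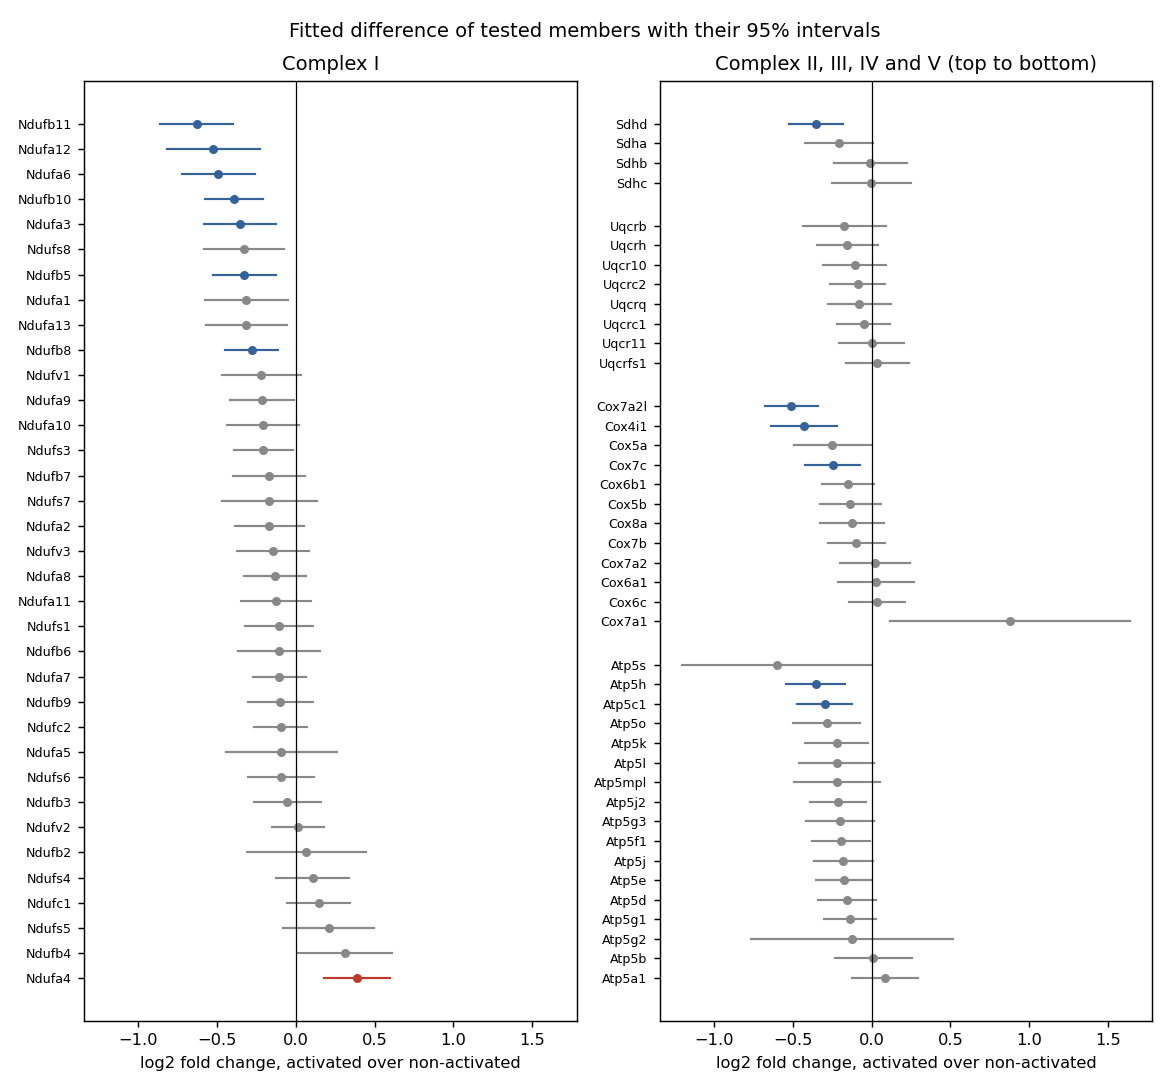
Log2 fold change (activated over non-activated) of 76 of the 77 tested members, each with its 95% interval from edgeR's quasi-likelihood fit, complex I on the left and complexes II to V from top to bottom on the right; blue marks members that passed as lower, red the 1 that passed as higher, grey those that did not pass. Most points lie to the left of 0 and within 0.6 of it, and the widest intervals belong to Cox7a1, Atp5g2 and Atp5s.

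Complex I held 8 of the 14 called members, and the 7 lower ones are accessory subunits, which surround the catalytic core. Most of its 36 tested members are accessory too, since the core holds 7 of them. The strongest change was in Ndufb11, a single-pass subunit of the membrane arm encoded at chrX:20615326-20617619 (GRCm38, as are all positions given here, which span the whole gene). Its normalised level was 19.0, 21.2 and 21.4 CPM in activated replicates 1 to 3 and 28.5, 33.6 and 33.2 CPM in non-activated replicates 1 to 3. Every activated library was below every non-activated one. The activated level was 0.646 times the non-activated one (95% interval 0.550 to 0.759; log2 change -0.63 ± 0.10, SE), with an edgeR adjusted p of 0.00256. This call held in all 19 alternative fits, with adjusted p from 1.48e-05 to 0.0411.

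Another 3 subunits of the Ndufb group, all in the membrane arm, were lower. Ndufb10 (chr17:24722060-24724423) was at 32.1, 35.0 and 36.9 CPM in activated and 45.6, 45.6 and 45.0 CPM in non-activated libraries. The groups did not overlap, and the ratio was 0.763 (log2 -0.39 ± 0.08, edgeR adjusted p = 0.00815). Ndufb5 (chr3:32737057-32751559) was at 33.5, 34.6 and 31.8 CPM against 38.8, 45.1 and 41.5 CPM, a ratio of 0.797 (edgeR adjusted p = 0.0244). Ndufb8 (chr19:44548571-44555442) was at 38.2, 40.1 and 39.5 CPM against 49.5, 48.1 and 45.6 CPM, a ratio of 0.823 (edgeR adjusted p = 0.0234). Neither of these overlapped between groups either. Ndufb10 kept its call without any 1 library, whereas Ndufb5 no longer passed when activated replicate 3 was left out, or non-activated replicate 2 or 3, and Ndufb8 when non-activated replicate 1 or 2 was, at adjusted p up to 0.0966 and 0.0857. On the deposited TPM, limma on log2(TPM + 1) gave adjusted p of 0.0863 for Ndufb5 and 0.0701 for Ndufb8, so neither passed. With Ndufb11 these make 4 of the 10 members named Ndufb, and Ndufb4, also of the membrane arm, went the other way without passing, at 22.3, 17.9 and 16.3 against 15.0, 14.7 and 15.9 CPM (log2 0.31, edgeR adjusted p = 0.116).

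The lower Ndufa members were Ndufa12, Ndufa6 and Ndufa3. Ndufa12, a matrix-arm subunit encoded at chr10:94199035-94221440, was at 18.4, 23.1 and 18 CPM in activated and 27.7, 32.1 and 25.6 CPM in non-activated libraries. The highest activated value stayed just under the lowest non-activated one, and the ratio was 0.696 (log2 -0.52 ± 0.13, edgeR adjusted p = 0.0183). Ndufa6 (chr15:82350139-82354291), which binds the mitochondrial acyl carrier protein, was at 29.7, 33.0 and 29.9 CPM against 38, 46.4 and 45.8 CPM. It also did not overlap, with a ratio of 0.711 (log2 -0.49 ± 0.10, edgeR adjusted p = 0.00815). Ndufa3 (chr7:3617347-3620165) was at 35.4, 36.9 and 32.5 CPM against 40.3, 49.5 and 44.2 CPM. Its groups were separate by a narrow margin and the ratio was 0.782 (edgeR adjusted p = 0.0291). Ndufa6 kept its call without any 1 library. Leaving out activated replicate 3, or non-activated replicate 2, ended the calls of Ndufa12 (adjusted p up to 0.0685) and Ndufa3 (up to 0.108), and leaving out non-activated replicate 3 also ended that of Ndufa3, which did not pass on TPM with limma either (adjusted p = 0.197).

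Ndufa4 was the 1 member called higher. It was first described as a complex I subunit, which its name keeps and by which it is counted here, and is now placed in complex IV. Ndufa4 (chr6:11900372-11907450) was at 31.4, 30.4 and 28.9 CPM in activated and 21.4, 24.8 and 23.3 CPM in non-activated libraries. Every activated value was higher, at 1.31 times the non-activated level (95% interval 1.13 to 1.51; log2 0.39 ± 0.09, edgeR adjusted p = 0.0149). Without non-activated replicate 1 or 3 the adjusted p rose as far as 0.0581, and limma on log2(TPM + 1) gave a log2 change of 0.28 with an adjusted p of 0.0939. Its paralogue Ndufa4l2, known as a hypoxia-induced gene, had 1 count in each group. A further paralogue outside the naming rule, AA467197, the mouse counterpart of human NMES1, whose product can take the place of Ndufa4 in complex IV, was singled out after its values were seen. It was at 348, 460 and 425 CPM against 262, 275 and 283 CPM, which is 1.5 times higher (log2 0.59 ± 0.11, edgeR adjusted p = 0.00546).

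None of the 7 nuclear subunits of the catalytic core of complex I, which carry the flavin and the iron-sulphur clusters or shape the quinone site, passed the test. Over all tested genes 27.6% passed, and a set of 7 is too small to tell none from such a share. The lowest fitted change among the 7 was -0.33, for Ndufs8, and all 7 intervals lay within 1.5-fold. Ndufs8, which carries iron-sulphur clusters, was nearest to a call at 12.8, 11.3 and 10.8 CPM in activated and 14.4, 14.8 and 14.8 CPM in non-activated libraries. These did not overlap, with an edgeR adjusted p of 0.0584, and in the fit with the replicate block Ndufs8 and Ndufs3 passed. The difference between core and accessory subunits was not tested, and this grouping was made with the values known.

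**Figure D3:**
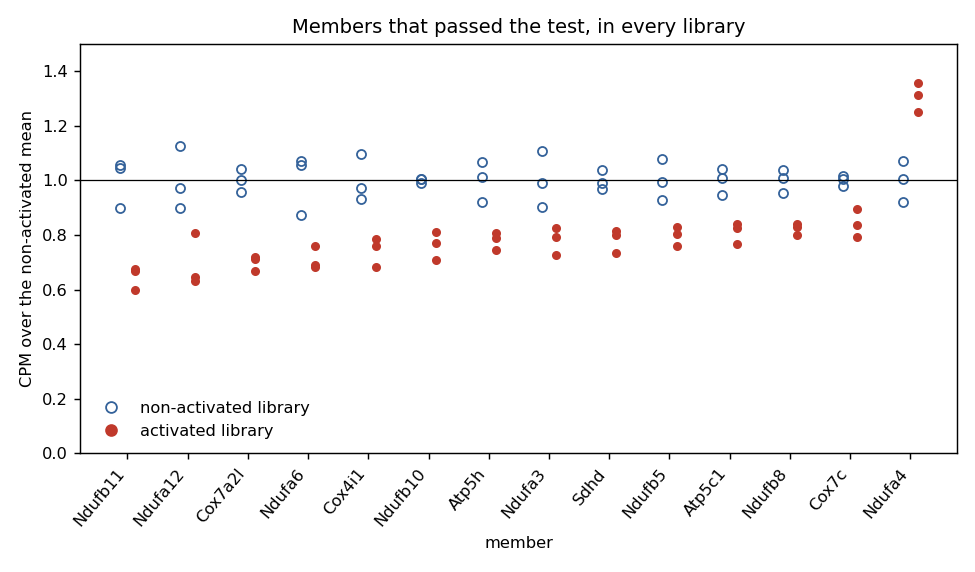
CPM divided by the non-activated mean for the 14 members that passed the test, 1 point for each library, open blue for non-activated and filled red for activated; the line marks the non-activated mean. The 13 lower members are ordered by fitted change from Ndufb11 to Cox7c, Ndufa4 stands last above the line, and in none do the groups overlap.

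Complex II, succinate dehydrogenase, is also an enzyme of the citric acid cycle, and only its anchor Sdhd passed. Sdhd (chr9:50596340-50603849) was at 126, 140 and 137 CPM in activated and 170, 179 and 166 CPM in non-activated libraries. The groups were well apart, with a ratio of 0.783 (log2 -0.35 ± 0.08, edgeR adjusted p = 0.00958), and the call held without any 1 library. Sdha, the flavoprotein that oxidises succinate, was at 206, 211 and 192 CPM against 255, 240 and 208 CPM. The values overlapped and it did not pass (log2 -0.21, edgeR adjusted p = 0.140). Sdhb, the iron-sulphur subunit, was at 44.7, 56.6 and 47.6 CPM against 51.9, 50.6 and 47.2 CPM. Sdhc, the other anchor, was at 65.8, 79.6 and 66.5 CPM against 74.1, 75.9 and 62.2 CPM. Both were intermingled between groups, and the interval for Sdhc allowed 0.838 to 1.19 times the non-activated level.

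In complex III none of the 8 members passed and all 8 intervals lay within 1.5-fold. Fitted changes ran from -0.17 for Uqcrb to 0.04 for Uqcrfs1. Uqcrb, which borders the quinone site, was at 36.5, 37.2 and 28.1 CPM in activated and 39.1, 38.9 and 36.9 CPM in non-activated libraries, so the groups overlapped through 1 activated value (edgeR adjusted p = 0.303). Uqcrfs1, the Rieske iron-sulphur protein, was at 68.8, 77.8 and 65.3 CPM against 65.6, 70.2 and 71.0 CPM, and the sign of its fitted change turned with total counts as the scale. Uqcrq was at 47.9, 43.2 and 41.8 CPM against 45.9, 50.1 and 44.4 CPM (edgeR adjusted p = 0.551). Uqcrh was the 1 member of the complex whose groups did not overlap, at 75.1, 68.2 and 62.9 CPM against 76.5, 76.6 and 76.6 CPM (edgeR adjusted p = 0.211).

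Complex IV had 3 lower members. Cox7a2l, known for its place in supercomplexes of complexes III and IV and encoded at chr17:83501917-83514333, was at 122, 121 and 113 CPM in activated and 170, 177 and 162 CPM in non-activated libraries. The ranges were far apart, and the ratio was 0.701 (95% interval 0.624 to 0.788; log2 -0.51 ± 0.07, edgeR adjusted p = 0.00148). This call, like that of Ndufb11, held in all 19 alternative fits, at adjusted p from 2.02e-07 to 0.0304. Cox4i1 (chr8:120668225-120674209), the common form of subunit 4, was at 103, 119 and 115 CPM against 141, 166 and 147 CPM. It did not overlap either, with a ratio of 0.742 (log2 -0.43 ± 0.09, edgeR adjusted p = 0.00952), and kept its call without any 1 library. Cox7c (chr13:86044798-86046795) was at 66.6, 71.3 and 63.2 CPM against 80.9, 80.0 and 78.2 CPM, a ratio of 0.841 (edgeR adjusted p = 0.0412). Its call held in only 1 of the 6 fits that left out a library, that without activated replicate 2, with adjusted p up to 0.119 in the others.

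Several complex IV subunits have tissue-specific paralogues, and these were near the limit of detection. Cox4i2, the paralogue of Cox4i1 known from lung and for its response to low oxygen, had 7, 4 and 3 counts in activated libraries and 0 in all 3 non-activated ones. That is 0.19 CPM over the activated group, 4.61 times the CPM of the 3 counts that a count of 0 over the non-activated group allows. This ratio covers counting error of the 0 only. It takes the 14 activated counts as exact and is not a lower bound of the difference. It fell under the filter, and in the fit without a filter its adjusted p by edgeR was 0.0432. Cox4i1 remained nearly the whole of the subunit 4 RNA, since Cox4i2 made up 0.178% of the family's TPM in activated libraries.

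Cox7a2l took a smaller part of the Cox7a family's RNA in every activated library. It made up 53.4 ± 1.00% (SD, n = 3) of the family's TPM in activated and 63.0 ± 1.43% in non-activated libraries, and Cox7a2, the widely expressed form, was at 57.1, 51.6 and 48.0 CPM against 55.5, 52.1 and 46.6 CPM and did not pass. Cox7a1, the heart and muscle form, had the highest fitted change of all members but few reads, at 33, 24 and 34 counts in activated and 14, 21 and 16 in non-activated libraries. Its groups did not overlap, at 1.23, 1.18 and 1.39 CPM against 0.533, 0.882 and 0.649 CPM. It did not pass on counts (log2 0.88 ± 0.33, edgeR adjusted p = 0.0858), but did on TPM with limma (adjusted p = 0.04). Of the sum of Cox7a1 and Cox7a2, Cox7a1 took 4.91 ± 0.80% against 2.79 ± 0.77%.

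The other complex IV families showed no called member. Cox6a1 was at 121, 150 and 155 CPM in activated and 138, 146 and 132 CPM in non-activated libraries, with overlapping groups, and its muscle paralogue Cox6a2 had 13 and 12 counts in all. Cox6b1 was at 102, 102 and 96.1 CPM against 114, 112 and 108 CPM, which did not overlap (log2 -0.15, edgeR adjusted p = 0.157), and its testis paralogue Cox6b2 had 7 and 21 counts. Cox7b was at 51.3, 44.1 and 47.4 CPM against 50.1, 51.9 and 50.8 CPM, and Cox8a at 142, 164 and 160 CPM against 172, 181 and 156 CPM, both overlapping. Cox7b2, Cox8b and Cox8c had a count of 0 in every library, which allows up to 0.110 to 0.141 CPM per library, for counting error only.

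Complex V had 2 lower members, 1 in its central stalk and 1 in its peripheral stalk. Atp5c1 (chr2:10056030-10080510), the gamma subunit of the central stalk, was at 126, 128 and 117 CPM in activated and 144, 159 and 154 CPM in non-activated libraries. The groups did not overlap, with a ratio of 0.812 (log2 -0.30 ± 0.08, edgeR adjusted p = 0.0206). Atp5h (chr11:115415691-115419919), subunit d of the peripheral stalk, was at 54.7, 53.3 and 50.5 CPM against 62.2, 72.1 and 68.5 CPM. It was lower in every activated library, with a ratio of 0.781 (log2 -0.36 ± 0.08, edgeR adjusted p = 0.0136). Leaving out non-activated replicate 2, or replicate 3, ended both calls, and leaving out activated replicate 3 ended that of Atp5c1, at adjusted p up to 0.0865 and 0.0577. All 4 subunits of the peripheral stalk (Atp5f1, Atp5h, Atp5j and Atp5o) had groups that did not overlap, and 1 passed in the main fit. Lower values without overlap were seen in 10 of the 17 members of complex V and in 20.7% of all tested genes. The trait was thus not particular to the stalk, and this grouping was not set beforehand. With the replicate block, Atp5f1, Atp5h and Atp5o passed (edgeR adjusted p = 0.0482, 0.00757 and 0.0103) and Atp5j did not (0.0589).

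Neither catalytic subunit of the head passed. Atp5b was at 765, 908 and 841 CPM in activated and 811, 906 and 781 CPM in non-activated libraries, fully intermingled. The interval allowed 0.849 to 1.19 times the non-activated level, and the sign of the fitted change turned with the scaling. Atp5a1, the alpha subunit, was at 449, 505 and 491 CPM against 442, 488 and 434 CPM (log2 0.08, edgeR adjusted p = 0.547). The c ring, which turns as protons pass, is made from Atp5g1, Atp5g2 and Atp5g3, which encode the same mature protein. Atp5g3 gave most of its RNA, at 54.5 ± 2.48% of the family's TPM in activated and 55.7 ± 1.52% in non-activated libraries, with Atp5g1 at 39.6 ± 1.36% and 38.6 ± 1.41%. None of the 3 passed, with Atp5g1 at 43.1, 44.2 and 41.2 against 47.7, 47.6 and 46.0 CPM, Atp5g3 at 67.6, 79.2 and 69.8 against 86.9, 86.1 and 75.5 CPM, and Atp5g2 at 7.95, 4.51 and 10.7 against 9.67, 7.69 and 8.07 CPM. Atp5s, now named Dmac2l, had the lowest fitted change of the complex at few reads, at 1.93, 2.31 and 2.73 against 2.70, 3.57 and 4.34 CPM (log2 -0.61 ± 0.26, edgeR adjusted p = 0.123).

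Summed over the 84 members, RNA for the nuclear subunits was 1.25, 1.31 and 1.31% of TPM in activated replicates 1 to 3 and 1.36, 1.49 and 1.46% in non-activated replicates 1 to 3. The groups did not overlap, and the mean of the activated ones was 0.899 times that of the others. The replicate 1 libraries were the lowest of each group, and with the T cell receptor alpha genes taken out of the total they were at 1.35 and 1.47%, with the ratio again 0.899. As a share of expected counts the ratio was 0.868. The groups did not overlap in any of the 5 complexes on the deposited scale, and without the T cell receptor alpha genes they overlapped in complex III, where activated replicate 1 was at 0.146% and non-activated replicate 3 at 0.145%. By complex the TPM ratios were 0.893, 0.866, 0.928, 0.890 and 0.908 for complexes I to V. With 3 libraries a group an exact permutation test of such a sum cannot pass 0.05. The summed values are shares of a library's RNA, so they do not say whether RNA per cell changed.

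**Figure D4:**
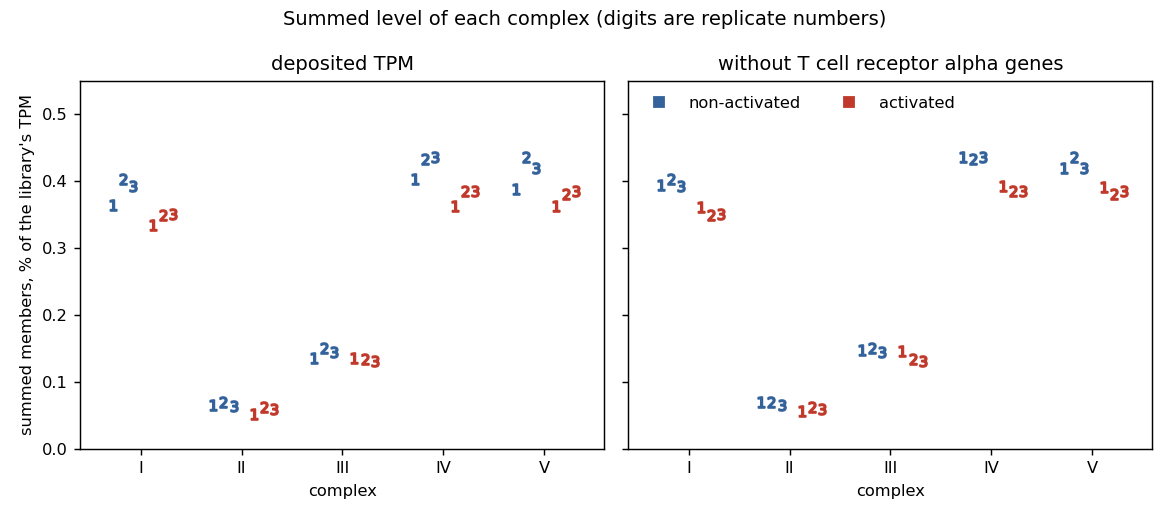
Summed TPM of the members of each complex as a percent of the library's TPM, as deposited (left) and with T cell receptor alpha genes taken out of the total (right); digits are replicate numbers, blue for non-activated and red for activated libraries. On the left the red digits lie below the blue ones in each complex, and on the right in each but complex III, where activated replicate 1 lies among the blue digits.

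The 13 subunits encoded in mitochondrial DNA were tested in the same fit, and none passed, with a median change of -0.04. Their fitted changes ran from -0.50 for mt-Atp6 to 0.20 for mt-Nd3. They took 1.83, 1.91 and 1.68% of expected counts in activated and 1.97, 2.24 and 2.20% in non-activated libraries. The ratio of nuclear to mitochondrially encoded counts was 0.279, 0.282 and 0.310 against 0.301, 0.278 and 0.268, so it overlapped between the groups.

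Genes that work beside the subunits were counted from lists, none of which was tested as a set. Over all tested genes 15.9% passed as higher and 11.7% as lower. Of 8 subunits and carriers outside the naming rule 1 was higher: Gpd2, the mitochondrial glycerol-3-phosphate dehydrogenase that feeds electrons to ubiquinone, at 171, 137 and 164 CPM in activated and 77.5, 74.7 and 74.0 CPM in non-activated libraries (log2 1.06 ± 0.10, edgeR adjusted p = 0.000152). Every activated value was well above the others. Of 17 complex I assembly factors Acad9 was higher (log2 0.32) and Dmac2 lower (-0.48). Of 23 complex IV assembly factors Cox15 (0.24), which makes heme A, and the copper chaperone Cox17 (0.23) were higher and Surf1 lower (-0.59). On the deposited TPM the groups of Cox15 overlapped, at 13.79, 14.53 and 15.53 in activated and 13.91, 16.91 and 10.63 in non-activated libraries. Of 6 complex III factors Uqcc3 was lower (-0.32), and none of 4 for complex II or 5 for complex V passed.

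Of 19 tested citric acid cycle and pyruvate entry genes, 4 were lower and 2 were higher, beside 11.7% and 15.9% of all tested genes. Mdh1, the cytosolic malate dehydrogenase of the malate-aspartate shuttle, which the list holds beside the cycle's own enzymes, was at 72.2, 65.6 and 69.0 CPM in activated and 163, 152 and 140 CPM in non-activated libraries (log2 -1.14 ± 0.09, edgeR adjusted p = 6.56e-05). The isocitrate dehydrogenase genes moved both ways, with Idh2 (-0.58), Idh3b (-0.42) and Idh3g (-0.38) lower and Idh3a (0.41) higher, and Pdhx of the pyruvate dehydrogenase complex was higher (0.43). On the deposited TPM the groups of Idh2 overlapped, at 7.27, 14.81 and 10.73 against 12.19, 18.38 and 14.86. Of 17 tested regulators of mitochondrial genes, Polg (0.50), Hif1a (0.42) and Gabpb1 (0.31) were higher and Polg2 was lower. The deposited TPM of Polg overlapped between groups, at 60.97, 58.3 and 42.98 against 40.14, 32.05 and 65.55. Polg2, the accessory subunit of the mitochondrial DNA polymerase whose catalytic subunit is Polg, was at 5.09, 4.81 and 4.57 CPM against 11.6, 12.5 and 11.6 CPM (log2 -1.30 ± 0.13, edgeR adjusted p = 0.000257). The transcription factors Nrf1 and Gabpa and the mitochondrial factor Tfam did not pass, at log2 changes of 0.21, -0.09 and 0.22.

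Nuclear subunit genes are known as targets of the factors NRF1 and GABP, so RefSeq promoters (GRCm38.p6, 250 bases before to 50 after the most upstream start of each gene) were searched on both strands for fixed letters. The palindrome for NRF1, given by the capitals in the Atp5g2 line, was in 5 of the 68 members with a window (7.35%) and in 0.981% of all 27025 windows. The letters CCGGAAG, for the ETS factors to which GABP belongs, were in 15 of 68 (22.1%) and in 9.14% of all. Of the 12 lower members with a window, 0 held the first and 2 held the second, while among the 53 other tested members 5 and 13 did. The 27025 windows include genes that were not tested here, and shares among tested genes alone were not computed. Stretches around a match are shown for Atp5h, a lower member, and for named members that did not pass, with the matched letters in capitals, on the gene's strand (minus for all 4 genes), where CTTCCGG is the reverse complement of the ETS letters.
Atp5h, chr11:115419939-115419969: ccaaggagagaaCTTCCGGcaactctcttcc
Atp5g2, chr15:102671068-102671101: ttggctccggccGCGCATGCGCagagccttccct
Cox6a1, chr5:115349099-115349132: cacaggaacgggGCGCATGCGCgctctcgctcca
Cox6a1, chr5:115348959-115348986: tccccatttccgCTTCCGGcgcgccggt
Cox6b1, chr7:30626124-30626154: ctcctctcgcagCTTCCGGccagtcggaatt
The Atp5h and Cox6b1 matches end 31 and 21 bases before the start, and Cox6a1 holds both kinds of letters in 1 window. A match is a string of letters and not a shown binding site.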

How the data were processed

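Per the file headers, the authors deposited 1 gene table per RNA library in the layout of RSEM, with an expected count, TPM and FPKM for each mouse Ensembl gene. File names point to a human build, but the gene IDs are mouse and the submitters' processing notes name GRCm38, with cutadapt, FastQC, BWA, SAMtools and limma among the tools. The RNA aligner was not given in the sources used here. Per the labels' protocols, libraries were NEBNext Ultra preparations of total RNA, sequenced as single reads, and whether strand was kept is not stated, so reads of overlapping genes on opposite strands cannot be told apart. Expected counts share reads between near-identical genes and processed pseudogenes. For 58 of the 84 members the deposited expected counts were whole numbers in every library (tolerance 0.005), and of the called members Ndufb5, Ndufb8, Cox4i1, Cox7c and Atp5h were not among these, so their values are less certain. The left-out row Ndufb1-ps did not pass (log2 0.13, edgeR adjusted p = 0.519).

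Expected counts were rounded to whole numbers, filtered with filterByExpr, scaled with TMM and tested with edgeR 4.0.16 (glmQLFit, glmQLFTest, R 4.3.3), activated against non-activated with no block, at an adjusted p of 0.05. The fit was tested on simulated counts first. CPM are counts scaled to TMM-adjusted library sizes. The deposited TPM served for levels and sums and for an alternative with limma 3.58.1 on log2(TPM + 1), and the deposited FPKM was not used. DESeq2 1.42.0 was a further alternative. Depth per library was 21338012 to 27404937 counts, and the biological coefficient of variation between replicate libraries, from edgeR's common dispersion, was 16.9%. Pairing was checked from the counts: deviations of same-numbered libraries correlated at 0.40, 0.31 and 0.19 for numbers 1 to 3, and those of other pairs at -0.31 to 0.04. The data thus point to pairing by number, but what the numbers mark is not in the labels. The main fit has no block, so its counts, intervals and p-values leave this pairing out. Results that use it are those given with the replicate block. Named with values in every library are members past the threshold, the most abundant of each complex, the highest and lowest fitted change of each complex, the complex II subunits and the paralogue families. Ndufb4, Ndufs8, Uqcrh and AA467197 were named after their values were seen. The members and lists were chosen with earlier results of these data known. All 84 members matched RefSeq genes of GRCm38.p6, which gave the coordinates and promoters. Left out were the ATAC-seq samples, and 1 member and 1 marker gene are not reported here by name.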

Additional observations from a re-analysis of the deposited data

How the results depend on the processing

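The count of genes passing (3848) moved both ways over 19 alternative fits. It was 2417 with limma on log2(TPM + 1), 2443 with log2(TPM + 0.1) and 1882 with limma and no filter. It was 5184 with the replicate block, 4066 on total counts and 3999 with edgeR and no filter. When 1 library or both libraries of a number were left out it was 1785 to 3629. Members passing (14, of which 13 lower and 1 higher) were 31, with 30 lower, on total counts and 5, with 4 lower, with limma and no filter. With the replicate block they were 24, with 23 lower. With libraries left out they were 2 to 17, with 2 to 16 lower and 0 to 1 higher, the lowest without both libraries of number 3. Without a filter 15 were lower and 2 higher, the added one being Cox4i2. The member median was -0.15 in the main fit and -0.23 on total counts. Each of the other 6 fits gave 11 to 16 lower members and 1 higher, and on TPM with the filter the higher one was Cox7a1. The block gains were Ndufa1, Ndufa9, Ndufa10, Ndufa13, Ndufs3, Ndufs8, Cox5a, Atp5f1, Atp5j2 and Atp5o, and it lost no call.

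Among named members, signs turned only for those that did not pass. Atp5b was at -0.0058 with DESeq2 size factors, -0.018 with upper quartile factors, -0.067 on total counts, -0.016 without a filter and -0.0070 with DESeq2. Cox7a2 was at -0.0049, -0.052 and -0.00052 with upper quartile factors, total counts and no filter, and Uqcrfs1 and Cox6a1 were at -0.043 and -0.050 on total counts. With libraries left out, values ran from -0.067 to 0.071 for Atp5b, -0.47 to 0.12 for Atp5g2, -0.075 to 0.11 for Cox6a1, -0.064 to 0.082 for Cox7a2, -0.13 to 0.072 for Sdhb, -0.11 to 0.063 for Sdhc and -0.054 to 0.11 for Uqcrfs1. Taking T cell receptor alpha genes out of TPM was chosen after seeing the data and left the summed ratio at 0.899. Cox7a1 rests on 91 and 51 counts per group, which limits its precision. The cause of these shifts was not tested.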
